A study of Mus musculus with 6 samples.

Results

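The genes described here are 10 genes of the TGF-β pathway itself: the ligands Tgfb1, Tgfb2 and Tgfb3, the receptors Tgfbr1, Tgfbr2, Tgfbr3 and Eng, and the latent TGF-β binding proteins Ltbp1, Ltbp2 and Ltbp3. They were chosen by symbol, with earlier results of these data known, and make up 10 of the 54752 genes in the count table. They were measured by RNA-seq in 6 libraries of NIH/3T3 cells, an established line of mouse embryonic fibroblasts, with 2 replicates in each of 3 groups. The vehicle group was given PBS, and the other two groups were given TGF-β1 at 1 ng/ml. To this DMSO was added in the TGF-β1+DMSO group, and 5 μM of BI6727, an inhibitor of the mitotic kinase PLK1, in the TGF-β1+BI6727 group. The study's RNA-seq methods name complete DMEM, with the additions for the treated groups, and per the labels the treatment lasted 72 h. No group had DMSO or BI6727 without TGF-β1, so that an effect of DMSO and one of TGF-β1 cannot be told apart. All the cells belong to 1 line, and the labels do not say whether replicates came from separate cultures, so p-values measure only the spread between these libraries.

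TGF-β ligands are made as precursors that furin-type proteases cut into the growth factor and its propeptide. The propeptide stays bound to the growth factor and keeps it latent, and most latent complexes are linked through the propeptide to a latent TGF-β binding protein, which anchors them in the matrix. The released ligand binds the type II receptor, which phosphorylates the type I receptor, which in turn phosphorylates SMAD2 and SMAD3. Betaglycan and endoglin are co-receptors that present or bind ligand and have no kinase domain. Fibroblasts are known both to respond to TGF-β1 and to make it.

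With TGF-β1, the ligands Tgfb1 and Tgfb2 lay on opposite sides of vehicle and the kinase receptors Tgfbr1 and Tgfbr2 on the same side. Promoter sequences are shown for these pairs of genes. They are 300 bases long, from RefSeq on GRCm38.p6, which gave a promoter for 8 of the 10 genes but not for Tgfb3 and Tgfbr3. Each runs 5′ to 3′ on the strand of its gene, from 250 bases before the start site. Capitals mark matches, on either strand, to the letters of known motifs. The GC box, bound by Sp1-type factors, was searched for as GGGCGG, the TATA box as TATAAA and the SMAD core element as CAGAC. The AP-1 element was spelled TGANTCA and the cyclic AMP element TGACGTCA.
Tgfb1 (chr7:25686752-25687051, + strand): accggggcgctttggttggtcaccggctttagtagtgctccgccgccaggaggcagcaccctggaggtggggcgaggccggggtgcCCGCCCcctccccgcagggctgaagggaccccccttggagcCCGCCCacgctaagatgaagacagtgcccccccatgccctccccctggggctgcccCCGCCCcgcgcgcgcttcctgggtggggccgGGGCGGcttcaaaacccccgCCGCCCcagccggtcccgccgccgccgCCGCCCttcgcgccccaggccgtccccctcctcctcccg
Tgfb2 (chr1:186705940-186706239, - strand): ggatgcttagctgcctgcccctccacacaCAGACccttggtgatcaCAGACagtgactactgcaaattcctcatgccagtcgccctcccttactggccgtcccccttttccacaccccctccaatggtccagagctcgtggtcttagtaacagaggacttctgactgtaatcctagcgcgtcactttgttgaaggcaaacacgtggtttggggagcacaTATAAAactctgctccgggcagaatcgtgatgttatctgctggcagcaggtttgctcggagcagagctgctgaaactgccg
Tgfbr1 (chr4:47352972-47353271, + strand): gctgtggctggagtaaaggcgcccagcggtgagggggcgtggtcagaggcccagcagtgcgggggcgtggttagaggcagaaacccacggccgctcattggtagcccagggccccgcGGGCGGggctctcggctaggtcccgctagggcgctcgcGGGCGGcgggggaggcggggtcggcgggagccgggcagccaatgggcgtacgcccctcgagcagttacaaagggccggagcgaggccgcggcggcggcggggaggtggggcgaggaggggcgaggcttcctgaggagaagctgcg
Tgfbr2 (chr9:116175314-116175613, - strand): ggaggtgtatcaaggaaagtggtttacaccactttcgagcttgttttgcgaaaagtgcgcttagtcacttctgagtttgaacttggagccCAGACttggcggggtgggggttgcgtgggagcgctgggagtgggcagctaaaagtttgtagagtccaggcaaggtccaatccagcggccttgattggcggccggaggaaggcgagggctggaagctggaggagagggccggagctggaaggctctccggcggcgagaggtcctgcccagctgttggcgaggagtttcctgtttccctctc

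The Tgfb1 promoter held 6 GC boxes, a number reached by 1.35% of the 32851 promoters in the table, and a GC content of 77.0%. The Tgfb2 promoter held a TATA box 31 bases before the start site and 2 SMAD elements, at a GC content of 54.3%. The Tgfbr1 promoter shown held 2 GC boxes, and that of Tgfbr2 held a single SMAD element. Tgfbr1 had another promoter, not shown (chr4:47385966-47386265), with 0 GC boxes, 1 SMAD element and a GC content of 52%. Over all promoters, 35.7% held at least 1 GC box, 13.6% a TATA box, 49.6% a SMAD element, 7.81% an AP-1 match and 1.79% a cyclic AMP element. Among the members, the AP-1 letters occurred only in the Ltbp3 window, where they overlap a SMAD element, and those of the cyclic AMP element only in the first of the 2 Ltbp1 windows. These matches describe letters in the windows and not bound sites.

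Library totals ranged from 18362378 to 24452153 counts. Levels are given as normalized CPM, scaled by TMM to the total of the genes tested, or as RPKM, the same per kilobase of exon. A gene entered the tests when over 3 libraries had 10 CPM or more of it, which left 9518 genes and 8 of the 10 members. Tgfb2 and Eng fell below this limit. A gene was called at an adjusted p below 0.01 and a fold change above 2 (edgeR's quasi-likelihood test, Benjamini-Hochberg adjustment over all genes tested). The TGF-β1+DMSO replicates stood apart from each other, with an SD of their log2 difference across genes of 0.377, compared with 0.163 for vehicle and 0.147 for TGF-β1+BI6727. This difference ran with gene length. Over the tested genes with the shortest exonic length (up to 2620 bases), replicate 2 was higher than replicate 1 by a median of 0.31 on the log2 scale, and over those with the longest (from 6923 bases) it lay at -0.33. The members have 3383 to 10691 exonic bases, so values with either replicate left out are given beside the results. Such a fit holds 1 library of the group, which is assumed to vary like the libraries of the other groups, so that a p from it does not measure the spread of that group. All 9 fibroblast markers were expressed above the limit, with a summed level of 7975 to 10546 normalized CPM. No epithelial, endothelial or leukocyte marker was, and Krt18, Kdr, Emcn, Cd3e and Adgre1 had 0 counts in all 6 libraries. The epithelial markers summed to 0.208 to 1.28 normalized CPM and the leukocyte markers to 2.95 to 4.69. For the treatment itself, 13 TGF-β1 response genes were looked at, of which 9 were tested. The list was chosen with earlier results of these data known, so it is no independent check. In TGF-β1+DMSO compared to vehicle 3 of the 9 were called higher and 0 lower, where 2.56% and 2.53% of all genes tested were called. Acta2, the gene of α-SMA, rose 4.94-fold (adjusted p = 2.71e-05, edgeR), whereas Lox lay lower, at -0.69 on the log2 scale, without being called.

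Whether TGF-β1 changed the genes of its own pathway was addressed by comparing TGF-β1+DMSO with vehicle. The ligand gene Tgfb1 rose 2.36-fold and the co-receptor gene Tgfbr3 fell 6.45-fold. The second ligand gene Tgfb3 lay 1.58-fold higher, and the kinase receptors Tgfbr1 and Tgfbr2 lay 1.52-fold and 1.61-fold lower, without passing the threshold. The 3 binding protein genes lay within 1.24-fold of vehicle. Of the 8 members tested, 1 was called higher and 1 lower, where 2.56% and 2.53% of all genes tested were called. The median log2 fold change of the 8 was -0.17, and that of all genes tested was -0.0045. Without the fold change minimum the counts were the same, against 4.92% and 4.91% of all genes. At an adjusted p below 0.05 (edgeR), 2 members were higher, Tgfb1 and Tgfb3, and 3 were lower, the 3 genes Tgfbr1, Tgfbr2 and Tgfbr3, where 11.0% and 12.0% of all genes tested were. At an unadjusted p below 0.05 there were 5 of the 8 members, against 37.8% of all genes. With bulk RNA, less RNA per cell and fewer cells making a transcript cannot be told apart.

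**Figure D1:**
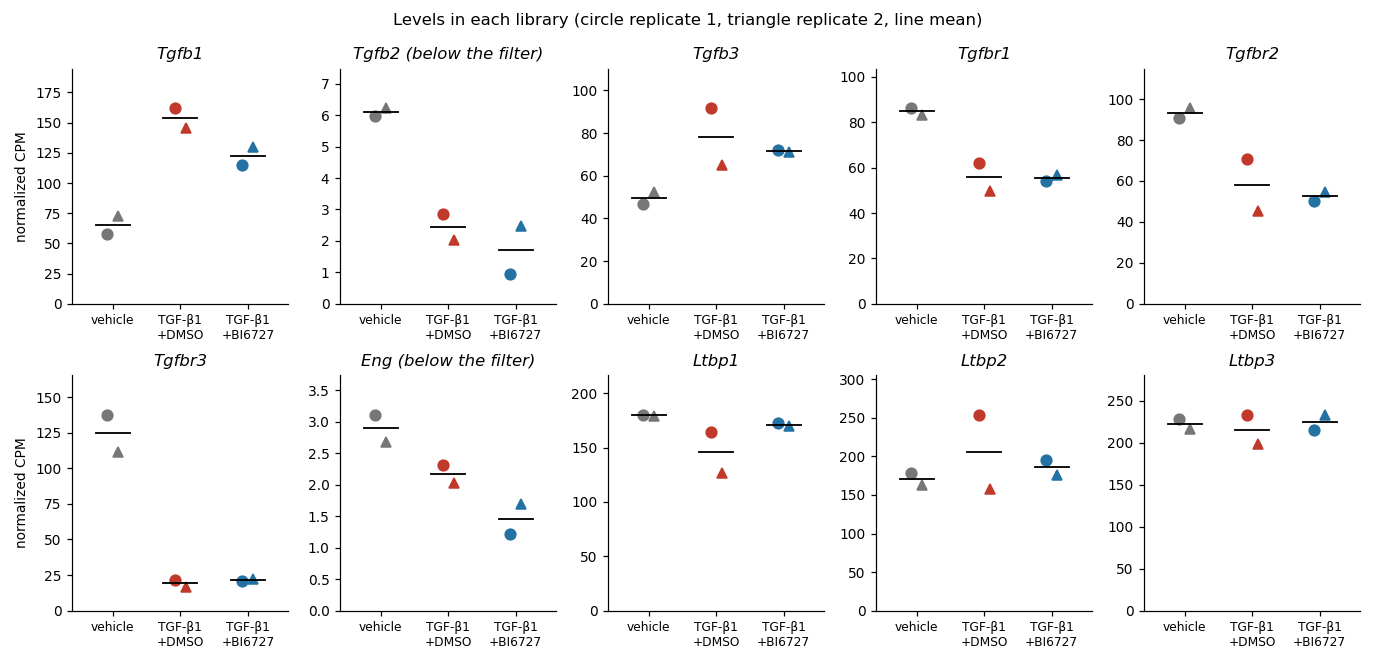
Normalized CPM (vertical axis, from 0) of each of the 10 genes in the 3 groups; circles are replicate 1, triangles replicate 2 and lines the mean of the 2. Tgfb1 lay between 57.4 and 73.0 with vehicle and between 114.6 and 162.3 in the 4 libraries with TGF-β1, whereas Tgfbr3 lay between 112 and 138 with vehicle and between 16.9 and 22.0 with TGF-β1.

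Tgfb1 (ENSMUSG00000002603.15, mm10 chromosome 7, 25687002 to 25705077, + strand, 8 exons when overlapping exons are merged) encodes the isoform that was added to the medium. The added protein carries no RNA, so these counts are of transcripts of the cells. Its level was 57.4 and 73.0 normalized CPM in the vehicle libraries, 162.3 and 145.4 with TGF-β1+DMSO, and 114.6 and 129.9 with TGF-β1+BI6727. All 4 libraries with TGF-β1 lay above both vehicle libraries, and the 3 groups did not overlap. The log2 fold change in TGF-β1+DMSO compared to vehicle was 1.24 (standard error 0.14, adjusted p = 0.00123, edgeR), which ranked 173rd among the genes that were higher. Under edgeR's less strict filterByExpr filter, with 14604 genes tested, it ranked 667th. Without vehicle replicate 1 it was 1.07 (adjusted p = 0.0240, edgeR) and without vehicle replicate 2 it was 1.42 (adjusted p = 0.0104, edgeR), so that the call was lost without either of them. Without DMSO replicate 1 and replicate 2 it was 1.15 and 1.32, and the call was kept. Exons of other genes overlapped 0% of its exonic length.

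Tgfb3 (ENSMUSG00000021253.7, chromosome 12, 86056745 to 86079041, - strand, 7 merged exons) encodes a ligand that signals through the same kinase receptors. It had 46.7 and 52.3 normalized CPM with vehicle, 91.9 and 64.9 with TGF-β1+DMSO, and 72.3 and 71.2 with TGF-β1+BI6727. Every library with TGF-β1 was above both vehicle libraries, although the DMSO replicates differed from each other by more than the TGF-β1+BI6727 mean differed from the vehicle mean. Compared to vehicle, Tgfb3 had a log2 fold change in TGF-β1+DMSO of 0.66 (standard error 0.17, adjusted p = 0.0294, edgeR). Without DMSO replicate 1 it was 0.38, and without replicate 2 it was 0.90, under a 2-fold change in both cases. Gm37804 and Gm48008, on the other strand, overlap 12.4% of its exonic length, and since the strand setting of the counting is not given in the sources used here, reads there cannot be told apart.

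Tgfb2 (ENSMUSG00000039239.14, chromosome 1, 186622792 to 186705989, - strand, 10 merged exons), the ligand that depends most on betaglycan for binding to the type II receptor, was weakly expressed. It had 115 and 137 counts in the vehicle libraries, 59 and 42 with TGF-β1+DMSO, and 17 and 60 with TGF-β1+BI6727. In normalized CPM these were 5.97 and 6.23, 2.85 and 2.02, and 0.946 and 2.48. Both vehicle libraries lay above all 4 libraries with TGF-β1. When the filter was relaxed to edgeR's filterByExpr, under which 14604 genes were tested, of which 2.75% were called higher and 3.23% lower, the log2 fold change in TGF-β1+DMSO was -1.31 (standard error 0.39, adjusted p = 0.0452, edgeR) and did not pass the threshold. It was -1.59 without DMSO replicate 1, where it passes with the remaining DMSO library of 42 counts assumed to vary like the other groups, and -1.07 without DMSO replicate 2. In TGF-β1+BI6727 against vehicle it was -1.77 (standard error 0.40, adjusted p = 0.0153, edgeR), with an adjusted p from 0.000316 to 0.102 over the other fits and the libraries left out. Tgfb1 and Tgfb2, whose promoters are shown above, thus lay on opposite sides of vehicle in all 4 libraries with TGF-β1.

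Among the receptors, Tgfbr3 (ENSMUSG00000029287.14, chromosome 5, 107106570 to 107289629, - strand, 18 merged exons), the gene of betaglycan, had the largest difference. Its level was 137.7 and 111.6 normalized CPM with vehicle, 21.8 and 16.9 with TGF-β1+DMSO, and 20.6 and 22.0 with TGF-β1+BI6727. The lowest vehicle library held over 5 times the level of the highest library with TGF-β1. The log2 fold change in TGF-β1+DMSO was -2.69 (standard error 0.17, adjusted p = 0.000102, edgeR). It was the 12th lowest of the 9518 genes tested, but the 126th lowest of the 14604 genes tested under filterByExpr. Leaving out each library in turn moved it -2.89 and -2.50, with adjusted p = 0.00529 (edgeR) at most. The gene Gm43422, on the same strand, overlaps 4.54% of its exonic length.

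Tgfbr1 (ENSMUSG00000007613.15, chromosome 4, 47353222 to 47414931, + strand, 13 merged exons) encodes the type I receptor kinase. It had 86.4 and 83.4 normalized CPM with vehicle, 62.1 and 49.9 with TGF-β1+DMSO, and 54.3 and 56.7 with TGF-β1+BI6727. The vehicle libraries lay above the 4 others. In TGF-β1+DMSO, Tgfbr1 had a log2 fold change of -0.60 (standard error 0.13, adjusted p = 0.0159, edgeR), or -0.77 without DMSO replicate 1 and -0.44 without DMSO replicate 2.

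Tgfbr2 (ENSMUSG00000032440.13, chromosome 9, 116084293 to 116175360, - strand, 8 merged exons) encodes the type II receptor kinase, which binds the ligand first. It had 90.6 and 95.7 normalized CPM with vehicle, 70.5 and 45.4 with TGF-β1+DMSO, and 50.3 and 54.8 with TGF-β1+BI6727. As for Tgfbr1, both vehicle libraries were above all others, and DMSO replicate 1 was the highest of the libraries with TGF-β1. Compared to vehicle, Tgfbr2 had a log2 fold change in TGF-β1+DMSO of -0.68 (standard error 0.19, adjusted p = 0.0424, edgeR). It was -1.04 without DMSO replicate 1, which passes the threshold only with the remaining DMSO library assumed to vary like the other groups, and -0.39 without DMSO replicate 2. After offsets had removed the trends on length, log2 fold changes of Tgfbr1 and Tgfbr2 were -0.52 and -0.57, with adjusted p = 0.00281 and 0.00641 (edgeR), under a 2-fold change.

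Eng (ENSMUSG00000026814.16, chromosome 2, 32646595 to 32682669, + strand, 14 merged exons), the gene of endoglin, a co-receptor best known from endothelial cells, had between 22 and 60 counts per library. It had 3.12 and 2.68 normalized CPM with vehicle, 2.32 and 2.02 with TGF-β1+DMSO, and 1.22 and 1.70 with TGF-β1+BI6727. The 3 groups did not overlap. With the filterByExpr filter, the log2 fold change was -0.41 in TGF-β1+DMSO and -0.95 in TGF-β1+BI6727 compared to vehicle (adjusted p = 0.395 and 0.0716, edgeR). The summed level of the 6 endothelial markers was 5.19 to 7.55 normalized CPM with vehicle, 12.0 to 18.3 with TGF-β1+DMSO and 10.3 to 10.7 with TGF-β1+BI6727. Of these markers Kdr and Emcn were at 0 counts throughout, and Vwf alone gave 94 to 300 counts. Their part in the values of Eng was not tested.

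The latent TGF-β binding proteins had the highest normalized CPM of the members, not divided by length, in the vehicle group. In RPKM, Tgfb1 at 30.5 ± 2.37 lay above Ltbp1 and Ltbp2 on average with TGF-β1+DMSO, and Tgfbr3 above Ltbp1 with vehicle. With TGF-β1+BI6727, Tgfb1 at 24.3 also lay above Ltbp1 (16.0) and Ltbp2 (22.7) on average. Tgfb3 lay above Ltbp1 on average with TGF-β1+DMSO (23.2 against 13.6) and with TGF-β1+BI6727 (21.2 against 16.0). Ltbp3 (ENSMUSG00000024940.10, chromosome 19, 5740904 to 5758532, + strand, 28 merged exons) had 228.0 and 215.8 normalized CPM with vehicle, 232.4 and 198.3 with TGF-β1+DMSO, and 214.8 and 233.2 with TGF-β1+BI6727, so that all groups overlapped. Its log2 fold change in TGF-β1+DMSO was -0.043, with a 95% interval from -0.30 to 0.22. Ltbp1 (ENSMUSG00000001870.16, chromosome 17, 75005568 to 75392512, + strand, 37 merged exons) had 180.3 and 179.4 normalized CPM with vehicle, 164.7 and 126.4 with TGF-β1+DMSO, and 172.2 and 169.6 with TGF-β1+BI6727. The vehicle libraries were the highest, and the log2 fold change in TGF-β1+DMSO was -0.31 (standard error 0.13, adjusted p = 0.135, edgeR). Its size followed the DMSO replicates, at -0.51 without replicate 1 and -0.11 without replicate 2.

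Ltbp2 (ENSMUSG00000002020.15, chromosome 12, 84783212 to 84876532, - strand, 35 merged exons) encodes the family member that does not bind latent TGF-β and is tied to elastic microfibrils. It had 178.8 and 163.0 normalized CPM with vehicle, 254.1 and 157.6 with TGF-β1+DMSO, and 195.6 and 176.2 with TGF-β1+BI6727. The DMSO replicates lay on either side of the vehicle libraries. Its log2 fold change of 0.27 (standard error 0.21, adjusted p = 0.367, edgeR) turned to -0.12 without DMSO replicate 1 and grew to 0.58 without DMSO replicate 2. D030025P21Rik, on the other strand, overlaps 9.34% of its exonic length. For Tgfb2, Eng and Ltbp3, genes on the other strand overlap 2.14%, 1.51% and 2.04%, and for Tgfbr1, Tgfbr2 and Ltbp1 the overlap is 0%.

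**Figure D2:**
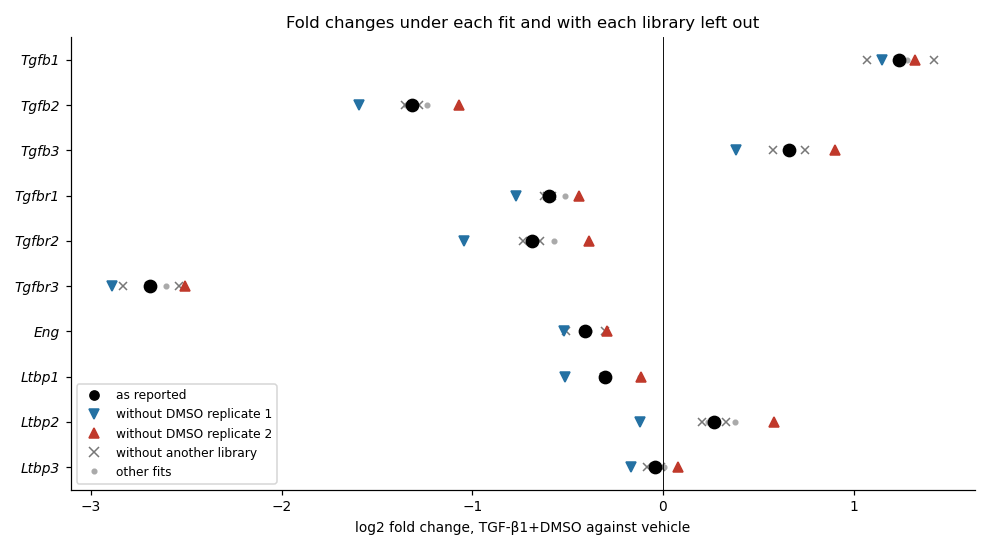
Log2 fold change of each gene in TGF-β1+DMSO compared to vehicle (horizontal axis), as reported (black), under the other fits (grey points) and with 1 library left out (triangles for the DMSO replicates, crosses for the others). Tgfb1 stayed between 1.07 and 1.42 and Tgfbr3 between -2.89 and -2.50, whereas Ltbp2 changed sign with the DMSO replicate that was left out.

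Across the 10 genes, the ranges of the TGF-β1+DMSO and vehicle libraries did not overlap for 2 genes that were higher and 6 that were lower. Of the 8 tested members, 2 were higher and 4 lower in this way. Among all genes tested, 29.8% were higher and 33.1% lower in this way. The plot of fold change by expression shows the 8 tested members among all genes.

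**Figure D3:**
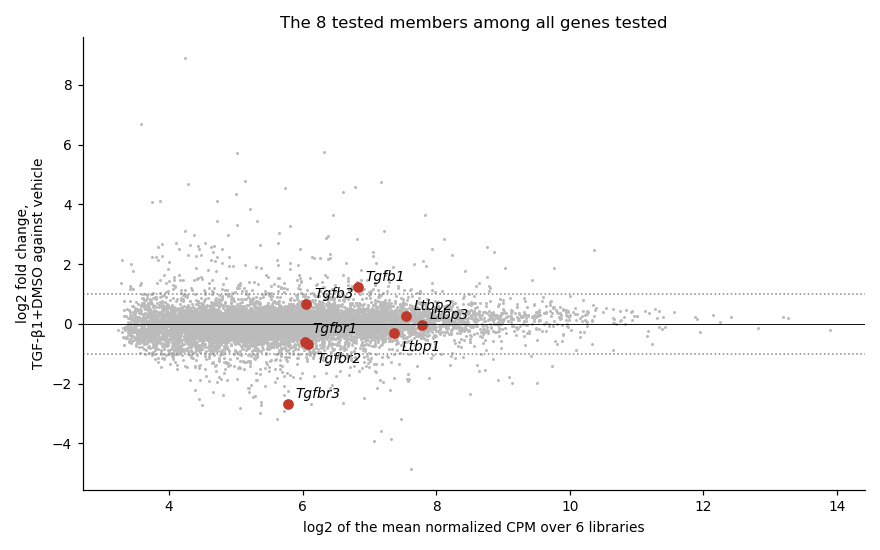
Log2 fold change in TGF-β1+DMSO compared to vehicle (vertical axis) against the log2 of the mean normalized CPM over the 6 libraries (horizontal axis) for the 9518 genes tested, with the 8 tested members in red and dotted lines at a 2-fold change. Tgfb1 at 1.24 and Tgfbr3 at -2.69 lie outside the dotted lines and the other members between them.

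Per kilobase of exon, the makeup of each family can be compared. The summed RPKM of the 3 ligands was 26.2 and 31.0 with vehicle, 59.8 and 48.4 with TGF-β1+DMSO, and 44.3 and 47.2 with TGF-β1+BI6727. Tgfb1 held 45.0% ± 2.31 of this sum with vehicle, 56.7% ± 4.10 with TGF-β1+DMSO and 53.0% ± 2.27 with TGF-β1+BI6727 (SD, n = 2). Tgfb3 held 51.3% ± 1.98, 42.5% ± 4.03 and 46.4% ± 2.65, and Tgfb2 the small rest of 3.70% ± 0.326, 0.772% ± 0.0709 and 0.638% ± 0.381. With vehicle, the ranges of Tgfb3 (14.6 ± 1.17 RPKM) and Tgfb1 (12.9 ± 2.19 RPKM) overlapped between libraries, although Tgfb3 was the higher of the pair within each library. With TGF-β1+DMSO, Tgfb1 at 32.2 and 28.8 RPKM was above Tgfb3 at 27.2 and 19.2 RPKM. The order with vehicle depended on the length used, since without division by length Tgfb1 held 53.8% and Tgfb3 41.1%.

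The summed RPKM of the 4 receptor genes was 46.1 and 42.2 with vehicle, 22.0 and 16.2 with TGF-β1+DMSO, and 17.9 and 19.2 with TGF-β1+BI6727. The order of the receptors differed between the groups. With vehicle, Tgfbr3 was highest at 19.0 ± 2.81 RPKM, followed by Tgfbr1 at 13.0 ± 0.329, Tgfbr2 at 11.4 ± 0.447 and Eng at 0.716 ± 0.0753 (SD, n = 2). With TGF-β1+DMSO, Tgfbr1 (8.57 ± 1.33 RPKM) and Tgfbr2 (7.08 ± 2.18 RPKM) overlapped, and Tgfbr3 followed at 2.95 ± 0.532 RPKM. With TGF-β1+BI6727 the values were 8.49 ± 0.262 for Tgfbr1, 6.42 ± 0.391 for Tgfbr2 and 3.26 ± 0.145 for Tgfbr3. Without division by length, Tgfbr2 held 30.6% and Tgfbr1 27.8% of the receptors with vehicle, so that their order was reversed. With TGF-β1+DMSO they held 42.4% and 41.7%, and the order differed between the replicates. Tgfbr2 and Tgfbr1 held 45.0% and 39.6% in DMSO replicate 1, and 39.7% and 43.7% in DMSO replicate 2. In both TGF-β1+BI6727 libraries Tgfbr1 stayed above Tgfbr2, at 42.9% and 41.9% against 39.8% and 40.5%. In RPKM the share of Tgfbr3 was 43.0% ± 3.67 with vehicle, 15.5% ± 0.524 with TGF-β1+DMSO and 17.6% ± 0.0515 with TGF-β1+BI6727.

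In RPKM the binding proteins had the same order in all groups. With vehicle, Ltbp3 had 42.8 ± 1.66, Ltbp2 20.9 ± 1.36 and Ltbp1 16.8 ± 0.0605 RPKM (SD, n = 2). Without division by length Ltbp1 held 31.4% and Ltbp2 29.8% of the 3 with vehicle, but 25.7% and 35.8% with TGF-β1+DMSO. The summed RPKM of the 3 was 82.6 and 78.3 with vehicle, 91.2 and 69.3 with TGF-β1+DMSO, and 81.4 and 82.3 with TGF-β1+BI6727, and the groups overlapped. The DMSO replicates differed from each other by more than any of the group means did.

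**Figure D4:**
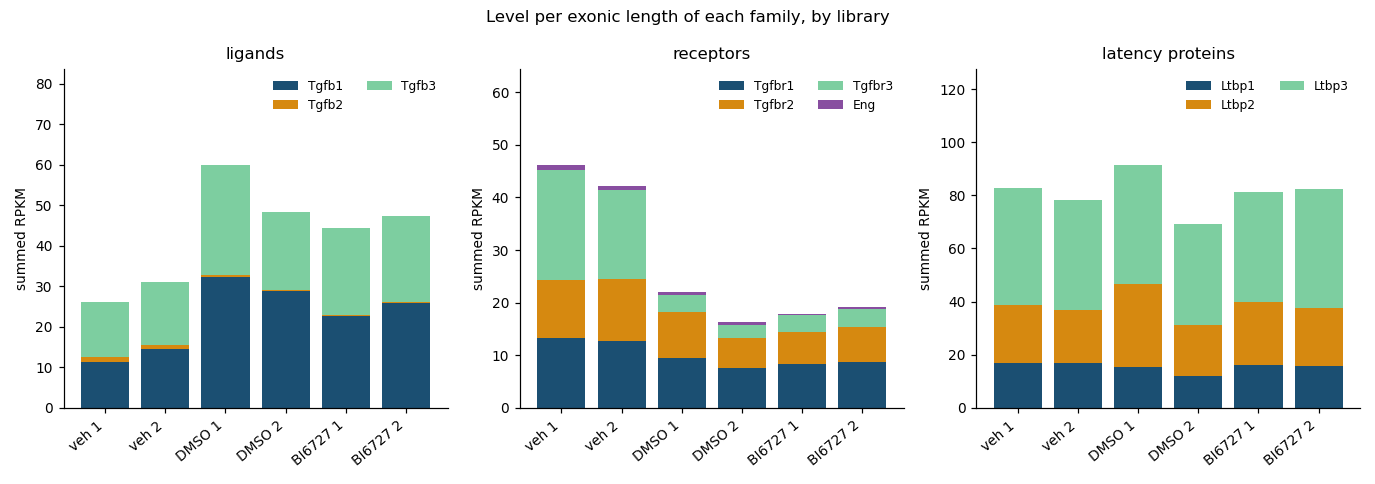
Summed RPKM (vertical axis, from 0) of the ligands, receptors and binding proteins in each library, with each gene as a part of the bar. The ligand bars are 26.2 and 31.0 with vehicle and 44.3 to 59.8 with TGF-β1, the receptor bars 46.1 and 42.2 with vehicle and 16.2 to 22.0 with TGF-β1, and the bars of the binding proteins overlap.

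Whether the PLK1 inhibitor altered these genes under TGF-β1 was addressed by comparing TGF-β1+BI6727 with TGF-β1+DMSO. None of the members passed the threshold (0 of 8, edgeR), as was the case for 0% of all genes tested. At an unadjusted p below 0.05 there was 1 member, Tgfb1, against 6.68% of all genes tested, and DESeq2 called 0 members. The log2 fold change of Tgfb1 was -0.33 (95% interval -0.66 to -0.0053, adjusted p = 0.738, edgeR), and both TGF-β1+BI6727 libraries were below both TGF-β1+DMSO libraries. Without DMSO replicate 1 it was -0.25 and without DMSO replicate 2 it was -0.42. The log2 fold change of Tgfbr3 was 0.14, with a 95% interval from -0.25 to 0.53, so that no return towards the vehicle level of 124.6 ± 18.4 normalized CPM (SD, n = 2) was detectable.

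The kinase receptors had log2 fold changes of -0.013 for Tgfbr1 (95% interval -0.31 to 0.29) and -0.14 for Tgfbr2 (95% interval -0.60 to 0.32) in TGF-β1+BI6727 compared to TGF-β1+DMSO. Those of Tgfb3, Ltbp2 and Ltbp3 were -0.13, -0.15 and 0.057, and the libraries of the groups overlapped for each of the 3. Both TGF-β1+BI6727 libraries had more Ltbp1 than either DMSO library, at 0.23 on the log2 scale (95% interval -0.077 to 0.54). It was 0.44 without DMSO replicate 1 and 0.040 without DMSO replicate 2. The ranges of the groups did not overlap for 1 gene that was higher, Ltbp1, and 2 that were lower, Tgfb1 and Eng, of which Eng was not among the tested genes, where 17.0% of all genes tested were higher and 17.1% lower in this way. These intervals do not show that BI6727 left the genes as they were.

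**Figure D5:**
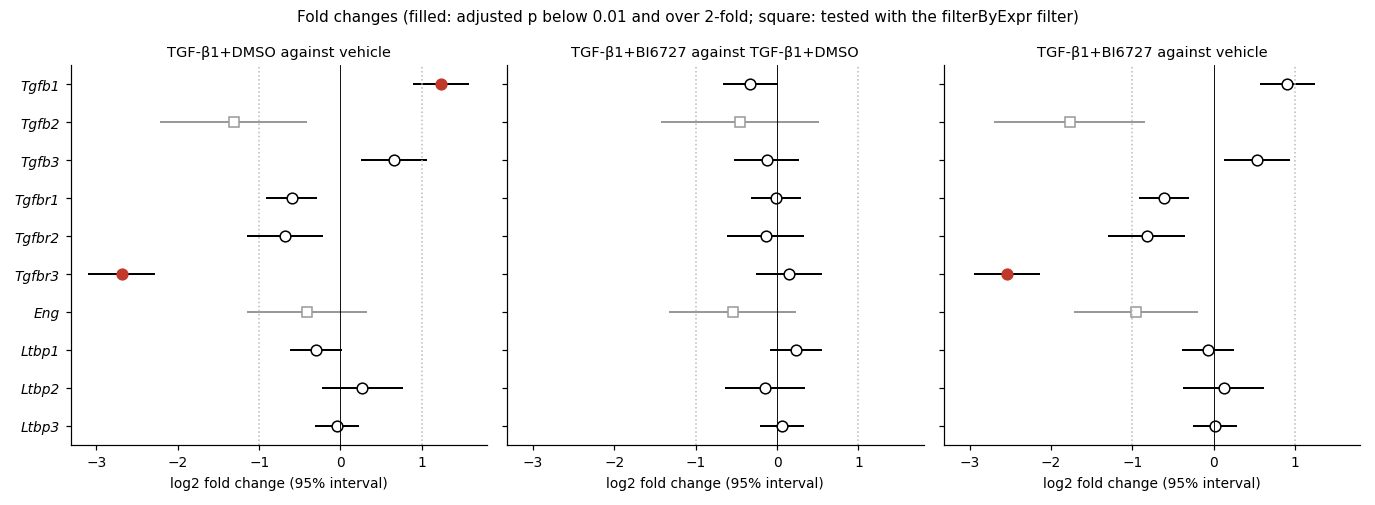
Log2 fold changes with 95% intervals (horizontal axis) of the 10 genes in the 3 comparisons; filled points passed the threshold, grey squares mark Tgfb2 and Eng, which were tested with the filterByExpr filter, and dotted lines mark a 2-fold change. Tgfb1 (1.24) passed in the first comparison only, Tgfbr3 passed in both comparisons against vehicle (-2.69 and -2.55), and no gene passed between TGF-β1+BI6727 and TGF-β1+DMSO.

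The comparison of TGF-β1+BI6727 with vehicle shares the vehicle libraries with the first comparison, and since all 6 libraries were in 1 fit, the spread of the DMSO libraries entered its errors. The log2 fold change of Tgfbr3 was -2.55 (adjusted p = 0.000122, edgeR, standard error 0.17), beside -2.69 for TGF-β1+DMSO, and passed the threshold. Tgfb1 had a log2 fold change of 0.91 (standard error 0.14, adjusted p = 0.00418, edgeR), beside 1.24, and stayed under a 2-fold change. Of the 8 members tested, 0 were called higher and 1 lower, where 2.34% and 2.96% of all genes tested were called. Without the fold change minimum Tgfb1 passed as well, so that 1 member was higher, against 4.94% of all genes tested, and 1 lower, against 5.99%. At an adjusted p below 0.05 (edgeR), 1 was higher and 3 were lower, where 11.3% and 13.2% of all genes tested were, and at an unadjusted p below 0.05 there were 5 of the 8 members, against 37.7% of all genes.

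For the other members, the log2 fold changes in TGF-β1+BI6727 against vehicle were 0.53 for Tgfb3, -0.61 for Tgfbr1 and -0.83 for Tgfbr2 (adjusted p = 0.0569, 0.0134 and 0.0215, edgeR). With only the libraries of these 2 groups in the fit, the fold changes were 0.53, -0.61 and -0.83 with adjusted p = 2.23e-05, 1.25e-06 and 2.90e-08 (edgeR), and that of Tgfb1 was 0.90 with adjusted p = 1.05e-07 (edgeR), all under a 2-fold change. The fold changes of the binding proteins were the smallest, at -0.073 for Ltbp1, 0.12 for Ltbp2 and 0.014 for Ltbp3 on the log2 scale. The ranges did not overlap for 2 of the 8 tested members that were higher and 4 that were lower, where 38.4% and 38.3% of all genes tested were.

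The genes around the members were described with 4 lists of the pathway, which held 52 genes, of which 40 were tested. In TGF-β1+DMSO compared to vehicle, 9 were called higher and 3 lower, against 2.56% and 2.53% of all genes tested. The lists were chosen with earlier results of these data known, so counts from them are descriptive and no test of the pathway. Of 12 tested genes of propeptide processing and release from latency, 5 were called higher and 0 lower, with a median log2 fold change of 0.69. These were Itgb3, a subunit of an integrin that binds the propeptide (log2 fold change 3.31), Thbs1, the gene of thrombospondin-1, which can activate latent TGF-β (1.99), Plau, the gene of the plasminogen activator uPA (1.55), Bmp1, a protease of matrix proteins (1.25), and Furin, which cuts the precursor (1.12) and was named after its value was seen. Exons of other genes cover 3.42% of Thbs1 and 1.29% of Furin. Mmp2 and Mmp14, of the same list, lay lower without being called, at -0.53 and -0.40 on the log2 scale. They were named after their values were seen. Of 6 tested partners and matrix anchors of the latent complex, only Dcn was called, the gene of the TGF-β binding proteoglycan decorin, which fell by 1.97. Ltbp4, the remaining binding protein gene, had 28.8 and 48.7 normalized CPM on average with vehicle and TGF-β1+DMSO (log2 fold change 0.76, adjusted p = 0.0561, edgeR), and was named after its value was seen.

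Of 10 tested receptor relatives, adaptors and regulators, Pmepa1, a feedback inhibitor that binds SMAD proteins, rose by 2.83 on the log2 scale, Cav1, the gene of caveolin-1, which takes part in receptor uptake, fell by 1.33, and 8 were not called. Of 12 tested genes of SMAD signalling, 3 were called higher, namely the transcriptional repressors Skil (2.35) and Tgif1 (1.29) and the inhibitory Smad7 (1.23). Smad3, which the receptors phosphorylate, fell by 1.29, and 8 were not called. Among these 8, the also inhibitory Smad6 lay lower, at -0.80 (adjusted p = 0.00703, edgeR), under a 2-fold change. In TGF-β1+BI6727 against vehicle Smad6 lay at -0.98, and it was named after its value was seen. In TGF-β1+BI6727 compared to vehicle, 9 of the 40 genes were called higher and 3 lower, against 2.34% and 2.96% of all genes tested, and the log2 fold change was 2.78 for Itgb3, 1.43 for Thbs1, -1.93 for Dcn, -2.17 for Cav1 and -1.22 for Smad3. Between TGF-β1+BI6727 and TGF-β1+DMSO, 0 of the 40 were called by edgeR. Of the 9 tested TGF-β1 response genes, 6 were not called in TGF-β1+DMSO compared to vehicle, among them Lox, the gene of a collagen cross-linking enzyme, at a log2 fold change of -0.69 (adjusted p = 0.0313, edgeR), and Timp3, a protease inhibitor gene, at -0.11. Among the response genes below the filter, Tgfbi, Itga11 and Cnn1 had lower mean levels with TGF-β1+DMSO than with vehicle. With vehicle and TGF-β1+DMSO, these were 11.7 and 5.47 normalized CPM for Tgfbi, 5.59 and 0.772 for Itga11 and 1.13 and 0.193 for Cnn1. Tagln, the only other response gene below the filter, went the other way, with a higher mean in TGF-β1+DMSO and low means in both groups. Exons of Gm48529 and Pcsk7 overlap 67.9% of the exonic length of Tagln, and those of Syn3 overlap 21.3% of that of Timp3. How many reads were lost there is not known. The choice of these response genes was made with their values in view. Ccn2, the gene of connective tissue growth factor, had a log2 fold change of 3.65, and Gm15270 overlaps 23.2% of its exonic length.

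The genes most like Tgfb1 over the 6 libraries were found by the root mean square difference in log2 CPM, centred on the vehicle mean. The nearest 3 of the 9518 genes were Mfap3l (0.075), Slc20a1 (0.090) and Prkx (0.097). In log2 units from the vehicle mean, Mfap3l lay at 1.36 and 1.00 with TGF-β1+DMSO and at 0.89 and 1.00 with TGF-β1+BI6727. Of the other members tested, Tgfb3 was the nearest to Tgfb1, at 0.43, but ranked only 454th in nearness among all genes tested. Tgfbr3 was the farthest of the members, at 3.03. The measure uses the same 6 libraries and shows likeness of levels alone.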

How the data were processed

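RNA of NIH/3T3 cells was sequenced after removal of rRNA. The authors mapped reads to mm10 with Subjunc (Subread 1.6.4, also in the submitters' processing notes), assigned them to genes of Gencode M20 by featureCounts, and deposited raw counts. The strand setting is not given in the sources used here. Library totals of 18362378 to 24452153 counts set the precision of low genes. Groups and replicates came from the sample titles. The members and lists were chosen with earlier results of these data known.

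Symbols were matched by Ensembl identifier (54723 of 54752). The filter kept genes that reached 10 CPM in more than 3 libraries. In R 4.3.3, edgeR 4.0.16 was run with TMM scaling, all 6 libraries in 1 fit (3 residual degrees of freedom) and no covariate. Standard errors are the log2 fold change divided by the square root of F, and intervals use the moderated degrees of freedom. RPKM used the summed exonic length in the deposited table. Exact permutation of 2 against 2 cannot go below p = 0.333, so none was made. The test was checked on simulated counts. Replicates were different libraries, with chi-square values per degree of freedom of 5.09 to 52.7.

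Alternatives were DESeq2 1.42.0, its size factors, filterByExpr, at least 10 counts in total, only the 2 groups compared, a replicate block, offsets from a lowess of log2 CPM on gene length (span 0.3), other thresholds, and each replicate left out. A crossed replicate block was added after the data were seen. Named genes were all 10 members, up to 4 called genes of each list by size of change, and the 3 nearest to Tgfb1. Exons of other genes were taken from the count table.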

Additional observations from a re-analysis of the deposited data

How the results depend on the processing

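The sign and side of the threshold were kept by 389 of 414 recomputed fold changes of the members, with Tgfb2 and Eng recomputed under filterByExpr. At an adjusted p below 0.05 without a fold minimum (edgeR), 2 members were higher and 3 lower in TGF-β1+DMSO against vehicle. Of all genes tested, 11.0% were higher and 12.0% lower there. In TGF-β1+BI6727 against vehicle, 1 member was higher and 3 lower, where 11.3% and 13.2% of all genes tested were. Below 0.01 without that minimum, 1 member was higher in TGF-β1+BI6727 against vehicle, where 4.94% of all genes tested were. With a replicate left out, the first comparison had 0 to 1 members higher and 1 to 2 lower. Tgfb1 lost its call without either vehicle replicate, and Tgfbr2 passed without DMSO replicate 1, as given above. In these fits the lone library of a group is assumed to vary like the other groups. The cause was not tested.

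Sign changes occurred in differences that did not pass the threshold, among them Tgfb2 at -0.46 between TGF-β1+BI6727 and TGF-β1+DMSO. With length offsets, Ltbp3 moved to 0.0034 in TGF-β1+DMSO and Ltbp1 to 0.015 in TGF-β1+BI6727 against vehicle. With a replicate left out, Ltbp2 ran from -0.12 to 0.58 and Ltbp3 from -0.17 to 0.079 in TGF-β1+DMSO against vehicle, and Ltbp3 from -0.050 to 0.071 in TGF-β1+BI6727 against vehicle. Between TGF-β1+BI6727 and TGF-β1+DMSO, the ranges were -1.35 to 0.034 for Tgfb2, -0.37 to 0.15 for Tgfb3, -0.17 to 0.16 for Tgfbr1, -0.44 to 0.22 for Tgfbr2, -0.041 to 0.34 for Tgfbr3, -0.46 to 0.24 for Ltbp2 and -0.065 to 0.18 for Ltbp3.

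Tgfb2 in TGF-β1+BI6727 against vehicle passed the threshold with DESeq2 (-1.79), only the 2 groups compared (-1.76), length offsets (-1.73), the crossed block (-1.86) and without either DMSO replicate. With the replicate block, Tgfb1 was 1.25 and Tgfbr3 -2.69 in TGF-β1+DMSO against vehicle, and 1 member was higher and 1 lower, as without it. Deviations of same-numbered replicates correlated across genes with r = -0.26 for DMSO with BI6727, -0.11 for vehicle with DMSO, and 0.047 for vehicle with BI6727. These values gave no sign that the numbers pair the libraries, but with 2 replicates per group they cannot exclude pairing. The crossed block gave 1.24 and -2.69 with the same counts.

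Over all genes, the 485 calls in TGF-β1+DMSO against vehicle became 874 with filterByExpr and 901 with at least 10 counts in total, and the 0 calls between TGF-β1+BI6727 and TGF-β1+DMSO became 11 with DESeq2. Without vehicle replicate 1, vehicle replicate 2 or DMSO replicate 1, the 485 became 127, 161 or 792, and the 0 became 61 or 18 without DMSO replicate 1 or 2. Counts of at most 137 limit Tgfb2 and Eng.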
